A study of Mus musculus with 10 samples.

Results

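The clustered histone genes are the mouse genes whose symbol starts with Hist1h, Hist2h, Hist3h or Hist4h, the names used in the GENCODE M21 annotation for the histone genes that sit side by side in the genome. The annotation holds 70 such genes, and 62 of the 38887 genes in the expression table are among them. Of the 62, 6 encode the linker histone H1, and 20 H2A, 16 H2B, 7 H3 and 13 H4 genes or pseudogenes encode or derive from the core histones. The other 8, Hist1h2bh, Hist1h2bm, Hist1h3d, Hist1h3f, Hist1h3g, Hist1h3h, Hist1h3i and Hist2h2bb, were not analysed here, so that the summed H3 level adds the values of 7 genes and of none of the other 5. Some of these 5 share stretches of sequence with the 7, so part of their reads may have been counted there. Transcripts were measured by RNA sequencing of hematopoietic progenitor cells from the bone marrow of mice bearing Lewis lung carcinoma, a transplantable tumour. For 2 weeks the mice were given either vehicle or BMS-595 at 60 mg/kg, which inhibits the serine/threonine kinase CK2, and each group has 5 libraries, called vehicle 1 to 5 and CK2i 1 to 5. Every library comes from a tumour-bearing animal, and the labels give neither the sort by which the cells were isolated nor the age or genotype of the mice. The labels do not tie each replicate to a mouse of its own, so a p-value here reflects how far these samples spread, and part of that spread may be technical.

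Replication-dependent histones package the DNA that is made in S phase. Their mRNAs end without a poly(A) tail, in a conserved stem-loop that is bound by the stem-loop binding protein, encoded by Slbp, and their levels rise as DNA synthesis starts and fall when it ends. Pairs of H2A and H2B bind as dimers around a core of H3 and H4 to form the nucleosome, and H1 binds the DNA between nucleosomes. The libraries were prepared with a stranded kit for total RNA, so that RNA without a poly(A) tail could be counted.

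The stem-loop is the feature that sets these mRNAs apart, and its forms are shown first. It was searched as a stem of 6 paired bases, with GG at the start and CT at the end of its 5′ strand, around a loop of 4 bases with T in the second place. It was found after the stop codon of 40 of the 62 members, 21 to 58 bases downstream of it. Among the 59 protein-coding members, it was found in 40 of the 47 whose annotated 3′ untranslated region has at least 30 bases and in 0 of the 12 with a shorter one. Over a like window, the last 150 bases of protein-coding transcripts, it was found in 21 of 59 members (35.6%) and in 1 of 21834 other genes, Snx8. The other members with a match have annotated ends farther downstream. Of 6 distinct stem-loops, the commonest was shared by 23 members of the classes H1, H2A, H2B and H3, and another by 7 H4 genes. Of the remaining forms, 1 was found in 5 members, 1 in 2 H4 genes, 1 in 2 other H4 genes and the last in Hist2h2ac alone. They are printed here from the M21 transcripts (GRCm38), as DNA, with the stem-loop in capitals between 5 flanking bases on each side. The examples lie at chr13:23621782-23621797, minus strand (Hist1h1e), chr13:23581950-23581965, plus strand (Hist1h4d), chr13:23747203-23747218, plus strand (Hist1h2bb), chr3:96262939-96262954, minus strand (Hist2h4), chr13:21735437-21735452, plus strand (Hist1h4j) and chr3:96220418-96220433, minus strand (Hist2h2ac), where the positions are those of the capitals.
Hist1h1e: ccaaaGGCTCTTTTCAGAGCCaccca
Hist1h4d: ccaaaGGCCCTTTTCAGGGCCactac
Hist1h2bb: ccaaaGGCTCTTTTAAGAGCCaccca
Hist2h4: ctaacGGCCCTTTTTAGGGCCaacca
Hist1h4j: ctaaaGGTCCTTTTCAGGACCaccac
Hist2h2ac: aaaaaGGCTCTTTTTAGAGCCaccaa

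Promoter windows from RefSeq (GRCm38.p6), 250 bases before to 50 after the start of each gene, matched 55 of the 62 members. On either strand, TATAAA was found in 58.2% of these windows against 13.6% of 32851 promoters, and CCAAT in 83.6% against 37.4%. CCAAT was found in every H1, H2A, H2B and H3 window and in 3 of the 12 H4 windows. The octamer ATTTGCAT, known from H2B promoters, was found in 21.8% of the windows against 1.74% of all promoters, in 7 of 18 H2A and 5 of 13 H2B windows and in none of the others. H2A and H2B genes often face away from each other: 13 such pairs, 172 to 305 bases apart, can share 1 window. The 120 bases before the start are shown for 5 members that differed between the groups, with matches of these 3 motifs on either strand in capitals. They lie at chr13:23622559-23622678, minus strand (Hist1h1e), chr13:23581448-23581567, plus strand (Hist1h4d), chr13:23571280-23571399, plus strand (Hist1h2bg), chr3:96220881-96221000, minus strand (Hist2h2ac) and chr11:58948791-58948910, plus strand (Hist3h2ba).
Hist1h1e: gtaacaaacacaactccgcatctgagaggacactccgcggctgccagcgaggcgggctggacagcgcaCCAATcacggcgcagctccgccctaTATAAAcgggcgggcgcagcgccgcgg
Hist1h4d: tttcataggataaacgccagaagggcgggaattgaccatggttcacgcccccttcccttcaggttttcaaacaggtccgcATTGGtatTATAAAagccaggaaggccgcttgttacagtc
Hist1h2bg: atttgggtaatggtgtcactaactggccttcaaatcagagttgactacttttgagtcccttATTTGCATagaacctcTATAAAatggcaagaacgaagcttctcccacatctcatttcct
Hist2h2ac: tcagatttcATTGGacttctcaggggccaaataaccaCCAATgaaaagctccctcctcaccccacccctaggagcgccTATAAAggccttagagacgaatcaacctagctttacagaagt
Hist3h2ba: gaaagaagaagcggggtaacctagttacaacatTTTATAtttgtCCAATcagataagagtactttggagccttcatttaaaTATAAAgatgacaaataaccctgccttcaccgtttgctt

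Most members lie in 2 blocks of chromosome 13 (GRCm38), 21 of the 62 between 21715763 and 22043676 and 27 between 23531050 and 23934851. The pseudogene Hist1h2al stands alone on the same chromosome. The cluster Hist2 holds 9 members in chr3:96219865-96270132, Hist3 holds 3 in chr11:58948920-58956830, and Hist4h4 lies at chr6:136801553-136804415. The copies are so alike that reads cannot always be placed. The share of a gene's 75-base stretches, the length of a read, that occur in no other gene had a median of 99.3% in H1, 75.4% in H4, 57.9% in H2B, 40.6% in H3 and 28.5% in H2A. These shares, here and below, are those of the M21 transcripts. The gene models behind the counts are not stated and appear to differ from M21 in length for some members. The translations of the 13 annotated H4 coding sequences are 1 and the same protein from 12 distinct sequences, and the 18 H2A genes give 9 proteins. RSEM shares a read that fits several genes among them by its model, so the value of a single H2A, H2B, H3 or H4 copy is uncertain, and sums over a class and cluster are given beside single genes. Gene models on the opposite strand overlap 22 members, and where such a model was in the table its mean was at most 11.7 CPM (Gm20628, over Hist2h3b). Without strand in the counting, reads of such partners cannot be told apart.

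The libraries hold 34127674 to 43636152 counts. The first principal component, with 49.7% of the variance, set CK2i 2 and CK2i 5 (scores 34.9 and 34.5) apart from CK2i 1, 3 and 4 (3.67, -3.88 and 9.61) and from vehicle (-23.9 to -7.98). Results are therefore also given with the treated group cut down to CK2i 1, 3 and 4. Among progenitor markers, Kit, Cd34 and Myb had mean levels of 269, 179 and 543 CPM, counts scaled to a common library size, with vehicle, and the T cell gene Cd3e of 0.0801 CPM. Summed over whole marker lists, the mean with vehicle was 1218 CPM for 7 progenitor and 4141 for 5 promyelocyte markers. It was 3733 for 10 megakaryocyte, 829 for 10 erythroid, 619 for 9 B and plasma cell and 45.4 for 6 T and NK cell markers. Cd3e alone therefore does not show that other cell types were absent.

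The summed level of the 62 members was lower in CK2i libraries. It was 18603, 20765, 18948, 19657 and 19309.6 CPM with vehicle and 18369, 15938, 17612, 16957 and 15262 with CK2i, in the order of replicates 1 to 5. Every CK2i library lay under every vehicle library, with CK2i 1 nearest to the vehicle range and CK2i 5 farthest from it. The means were 19456 ± 831 CPM (SD, n = 5) with vehicle and 16828 ± 1250.1 CPM (SD, n = 5) with CK2i, a difference of -0.21 on the log2 scale or -13.5%, and the mean of CK2i 1, 3 and 4 alone differed from vehicle by -9.31%. The members took 1.84%, 2.08%, 1.89%, 1.96% and 1.93% of all counts with vehicle and 1.85%, 1.58%, 1.77%, 1.71% and 1.52% with CK2i, so that the shares of vehicle 1 and CK2i 1 overlapped before the libraries were scaled against each other. In bulk RNA, fewer cells in S phase and less histone mRNA per cell cannot be told apart.

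With all 5 CK2i libraries, the fall had a like size in the 5 classes. Against vehicle, the mean summed level changed by -13.2% in H1, -10.8% in H2A, -14.7% in H2B, -13.6% in H3 and -14.7% in H4. The sizes spread more with CK2i 1, 3 and 4 alone: -10.9% in H1, -5.72% in H2A, -8.28% in H2B, -10.4% in H3 and -11.7% in H4. The libraries of the groups did not overlap in H1, H2B and H4, and did in H2A and H3. The mean share of a class in the members' counts differed between the groups by less than the SD of the CK2i libraries in all 5 classes: H2B took 27.0% ± 0.777 (SD, n = 5) with vehicle and 26.6% ± 1.33 (SD, n = 5) with CK2i, and H3 took 10.9% ± 0.248 (SD, n = 5) and 10.9% ± 0.492 (SD, n = 5). It differed by more than the smaller SD of the vehicle libraries in H2A and H4. H2A took 19.2% ± 0.325 (SD, n = 5) with vehicle and 19.8% ± 1.10 (SD, n = 5) with CK2i. H4 took 21.8% ± 0.256 (SD, n = 5) and 21.5% ± 0.483 (SD, n = 5).

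**Figure D1:**
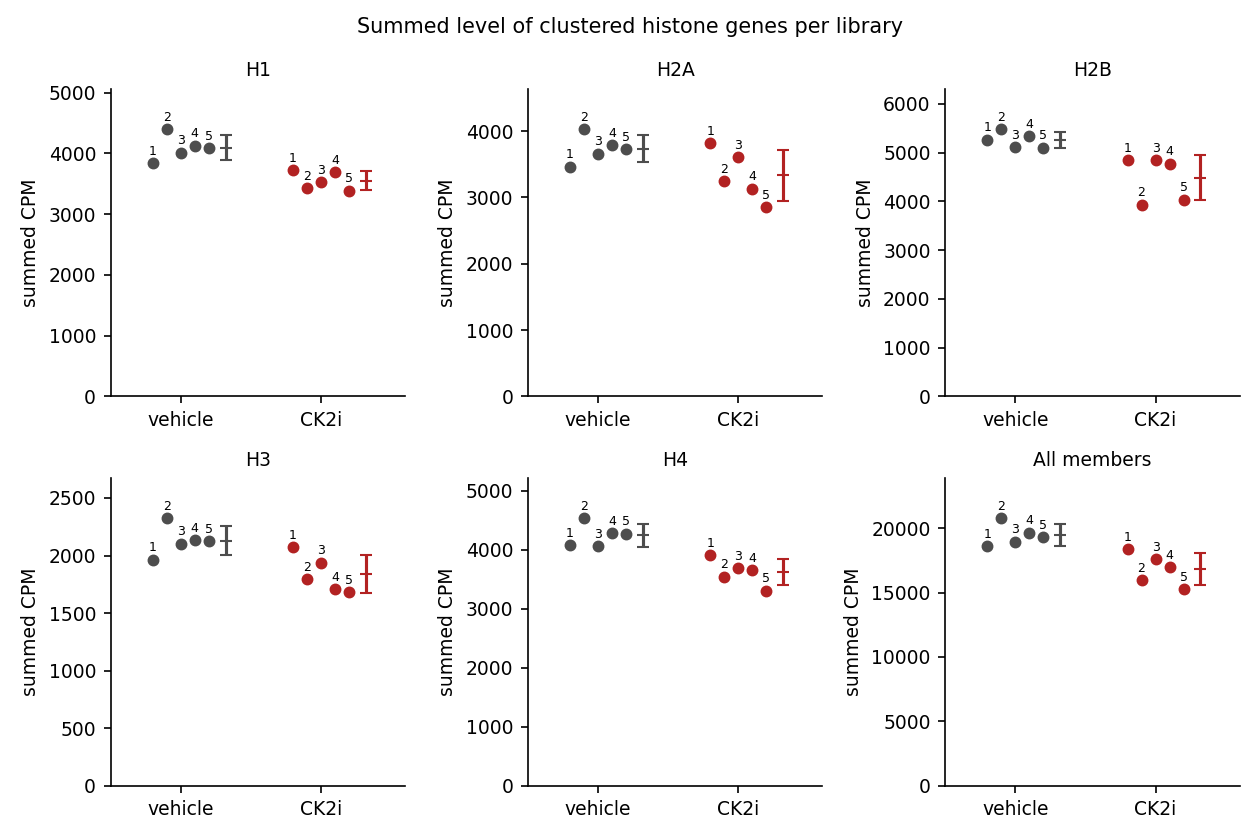
Summed level in CPM of the members of each class and of all 62 members (y axes, from 0) in each vehicle and CK2i library (x axes); points carry the replicate number and the bar beside them is the mean ± SD of 5 libraries. In the panel of all members the CK2i libraries sit between 15262 and 18369 CPM, all under the lowest vehicle library at 18603 CPM, while the H2A panel overlaps.

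Gene by gene, 56 of the 62 members had enough counts to be tested. The other 6 were Hist2h3c1, with a count of 0 in every library, the testis genes Hist1h2aa and Hist1h2ba, the pseudogenes Hist1h2aj and Hist1h2al, and Hist1h4m, none with more than 23 counts in a library. A count of 0 allows up to 3 counts, or 0.0879 CPM in the shallowest library, and Hist2h3c1 lies wholly within the noncoding gene model Gm20634 on the same strand, which had a mean of 45.4 CPM, so that a 0 there does not show an absent transcript. Of the 56, 18 were called lower in CK2i (32.1%, against 6.76% of all 14346 genes tested) and 2 were called higher (3.57%, against 6.43%), at an adjusted p under 0.05. The log2 difference was below 0 for 47 of 56 members and for 7199 of 14346 genes. Its median was -0.20 over the members and -0.0006 over all genes, and single members ran from -0.38 to 0.60. The groups did not overlap for 9 members that were lower (16.1%, against 5.76% of all genes) and for 1 that was higher (1.79%, against 5.18%).

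These calls rest on small differences and move with single libraries. Leaving out 1 library at a time left 5 to 26 members called: 5 without vehicle 4, CK2i 2 or CK2i 5, 7 without vehicle 1, vehicle 3 or vehicle 5, and 9 without vehicle 2. The calls over all genes moved too: without vehicle 4, CK2i 2 or CK2i 5, 8.93%, 8.77% and 8.93% of the members were called, against 3.66%, 4.28% and 3.09% of all genes, where all 10 libraries gave 35.7% of the members and 13.2% of all genes. With the treated group cut down to CK2i 1, 3 and 4, 1 of 57 members was called (1.75%), against 175 of 14583 genes. The log2 difference was below 0 for 44 of 57 and the median was -0.13. Of the 20 called members, 5 were called in the same direction in each of the 10 fits that left out 1 library: Hist1h1d, Hist1h1e, Hist1h2bn, Hist2h4 and Hist2h2be. All of the other 15 lost the call when vehicle 4, CK2i 2 or CK2i 5 was left out, 13 lost it without vehicle 1, without vehicle 3 or without vehicle 5, 11 without vehicle 2, 8 without CK2i 4, 2 without CK2i 1 and 1 without CK2i 3.

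**Figure D2:**
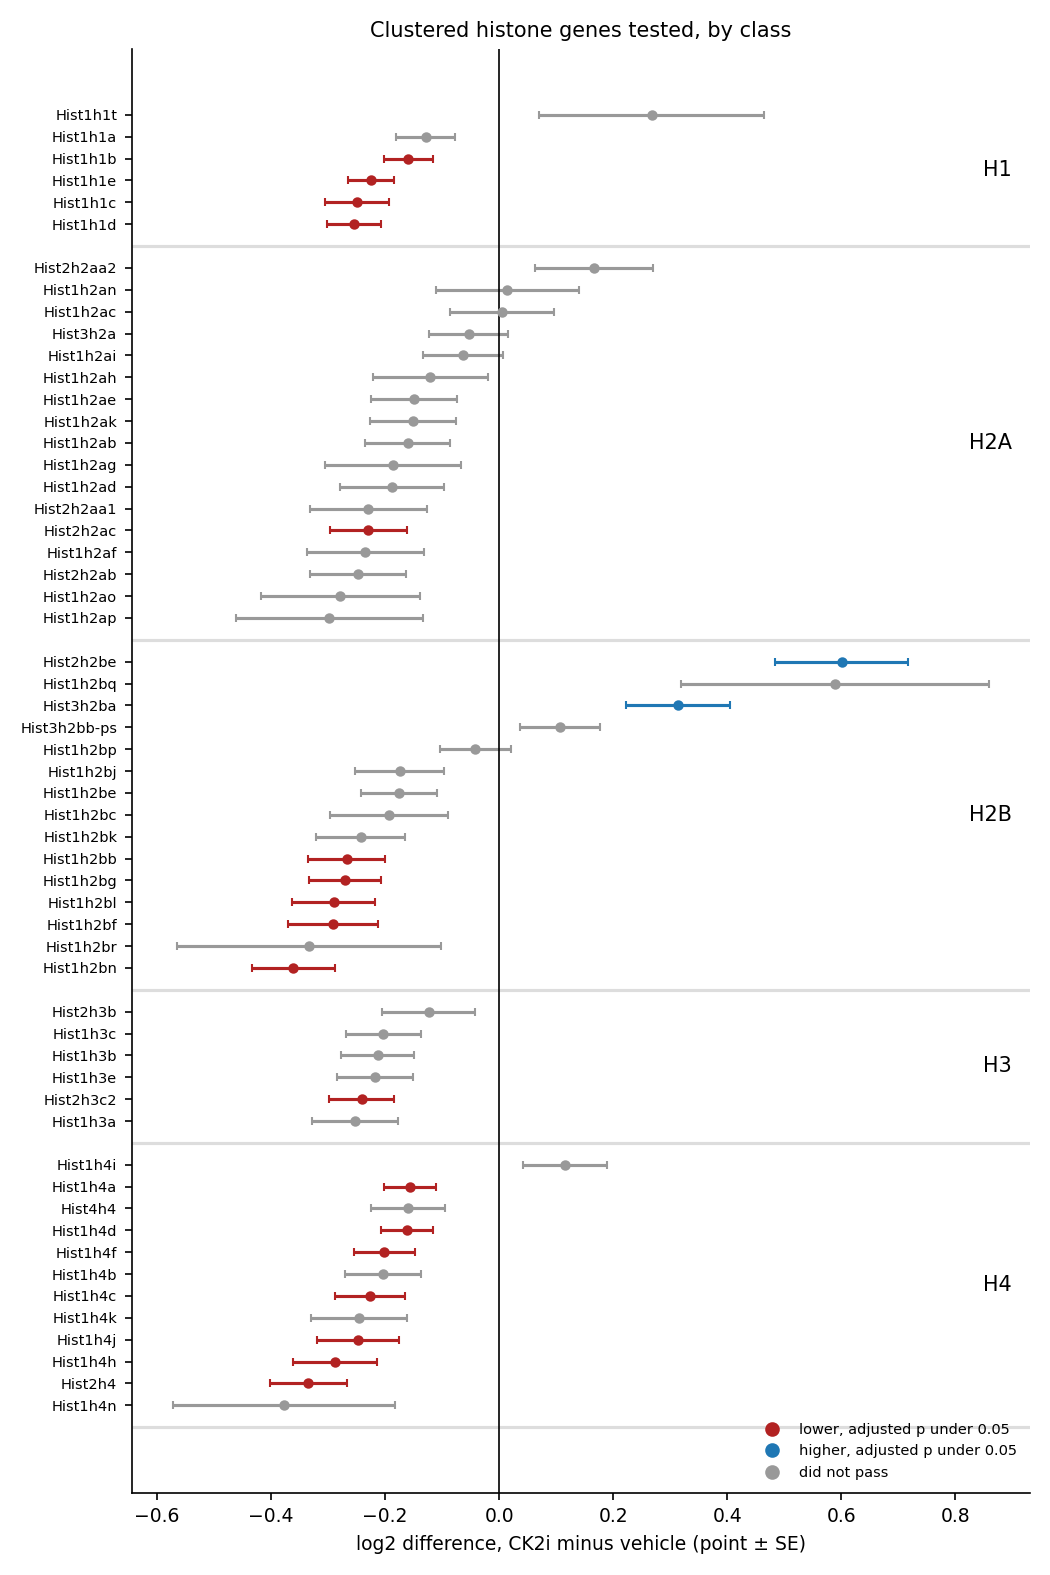
Log2 difference of CK2i minus vehicle (x axis) for the 56 members tested, 1 row per gene ordered within its class; points are estimates of edgeR's quasi-likelihood fit, bars are ± 1 SE and colour marks the call. Most points lie between -0.4 and 0, and Hist2h2be and Hist3h2ba are the 2 called to the right of 0.

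Of the 6 linker histone genes, 4 fell (66.7%, against 6.76% of all genes) and none rose. Their summed level was 3835, 4400.2, 4015, 4127 and 4088 CPM with vehicle and 3719, 3426, 3532, 3693 and 3387 with CK2i, so that all 5 CK2i libraries lay under the vehicle range, and the sum differed by -0.21 ± 0.04 (SE, adjusted p = 0.0209) on the log2 scale. Without CK2i 2 and 5 the adjusted p was 0.102, and the call was also lost without vehicle 4 or CK2i 5 alone (adjusted p = 0.0543 and 0.0551). It was 1 of 5 sums of a class and cluster called lower out of 12 (6.82% of all rows of that fit were), with 1 called higher (6.36%). The sums of Hist2 H2B, Hist2 H4, Hist3 H2A and Hist4 H4 hold 1 analysed gene each. The calls of Hist2 H2B (higher) and Hist2 H4 (lower) therefore repeat the results of Hist2h2be and Hist2h4.

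The somatic linker histone gene Hist1h1d (chr13:23553262-23560686) had 849, 1000.3, 890.2, 899 and 905 CPM with vehicle and 786, 731, 765, 792 and 734 with CK2i. Its groups did not overlap, and it differed by -0.25 ± 0.05 (SE, adjusted p = 0.015). In the M21 annotation, 22.7% of the 75-base stretches of Hist1h1e also occur in Hist1h2be, an H2B gene model that overlaps it on the same strand. The model counted for Hist1h1e appears shorter than that of M21, as given below with its level per length. This overlap may therefore not apply to the counts. Hist1h1e had 593, 671, 608, 624 and 628 CPM with vehicle and 546, 519, 526, 558 and 524 with CK2i. Again every CK2i library lay under every vehicle library, with a difference of -0.23 ± 0.04 (SE, adjusted p = 0.0138). Hist1h1c had 928, 1078, 1015, 1032 and 1005 CPM with vehicle and 928, 816, 896, 844 and 774 with CK2i. CK2i 1 lay just inside the vehicle range, and the difference was -0.25 ± 0.06 (SE, adjusted p = 0.0243). Hist1h1c is one of 3 members, with Hist1h2bc and Hist2h2be, described as also made with a poly(A) tail in differentiated cells.

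Hist1h1b had 611, 701, 633, 640.3 and 631 CPM with vehicle and 595, 589, 558, 590.3 and 548 with CK2i, without overlap, and differed by -0.16 ± 0.04 (SE, adjusted p = 0.0404). It was called in 3 of 10 fits that left out 1 library. Hist1h1a was the H1 gene with the highest mean level per length, 1488 fragments per kilobase scaled by depth (FPKM), ahead of Hist1h1b at 1056 and Hist1h1e at 996 FPKM. Such ranks depend on the length of the model counted, which is not stated, and need not rank abundance. Hist1h1a and Hist1h1e had means of 865 and 580 CPM, a like ratio to FPKM, though their M21 transcripts have 741 and 1930 bases. By CPM, Hist1h1c with a mean of 932 lay above Hist1h1a. Hist1h1a had 852, 949, 868, 929 and 918 CPM with vehicle and 862, 769.8, 785, 908 and 806 with CK2i. The groups overlapped and the difference, -0.13 ± 0.05 (SE, adjusted p = 0.11), did not pass the test. The testis linker histone gene Hist1h1t stayed between 0.666 and 1.29 CPM and did not pass the test.

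Of 17 H2A genes tested, 1 fell (5.88%, near the 6.76% of all genes) and none rose, and the log2 difference was below 0 for 14. The H2A genes of cluster Hist1 summed to 2064, 2388, 2174, 2278 and 2244 CPM with vehicle and 2259, 1917, 2138, 1926 and 1723 with CK2i. CK2i 1 and 3 lay inside the vehicle range and the other CK2i libraries under it, and the sum differed by -0.16 ± 0.07 (SE, adjusted p = 0.125). The Hist2 H2A genes summed to 1060.1, 1254, 1124, 1136 and 1089 CPM with vehicle and 1179, 966, 1076, 864 and 823 with CK2i, again with CK2i 1 and 3 inside the vehicle range, and differed by -0.21 ± 0.09 (SE, adjusted p = 0.139). Neither sum passed the test.

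The H2A gene with the highest level per length was Hist2h2aa1, with 2149 FPKM, followed by Hist1h2ab with 1439 and Hist1h2ak with 840.4 FPKM. Hist2h2aa1 had 813, 968, 856, 873 and 816 CPM with vehicle and 911, 732, 804, 632 and 612 with CK2i and a difference of -0.23 ± 0.10 (SE, adjusted p = 0.14). None of its 75-base stretches is its own, and all those of its copy Hist2h2aa2 recur in it. The copy had 48.7, 58.8, 64.5, 53.7 and 58.9 CPM with vehicle and 66.9, 66.3, 76.3, 58.5 and 51.4 with CK2i and a difference of 0.17 ± 0.10 (SE, adjusted p = 0.275). The 2 copies had differences of opposite sign, neither past the test. The noncoding model Gm20634, with a mean of 45.4 CPM, covers 529 of the 586 bases of Hist2h2aa1 on the same strand. It is not part of the Hist2 H2A sum. How reads were split among the 2 copies and Gm20634 cannot be told from the counts. Hist1h2ab had 463, 572, 528, 509.7 and 510.3 CPM with vehicle and 524, 444, 499.6, 415 and 429 with CK2i and differed by -0.16 ± 0.07 (SE, adjusted p = 0.15). Hist1h2ak had 287, 333, 302, 305 and 308 CPM with vehicle and 318, 258, 306, 252 and 248 with CK2i and differed by -0.15 ± 0.08 (SE, adjusted p = 0.176). In each of these genes the groups overlapped.

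The H2A gene that fell was Hist2h2ac (chr3:96220361-96220880), whose stem-loop form is its own. It had 191, 218, 195, 201 and 207 CPM with vehicle and 193, 161, 188, 167 and 153 with CK2i. CK2i 1 lay inside the vehicle range, and the difference of -0.23 ± 0.07 (SE, adjusted p = 0.0477) was called in 2 of 10 fits that left out 1 library. Its neighbour Hist2h2ab had 7.75, 9.03, 8.10, 8.54 and 7.80 CPM with vehicle and 7.93, 7.03, 7.08, 6.50 and 6.16 with CK2i and a difference of -0.25 ± 0.08 (SE, adjusted p = 0.07). The other tested H2A genes of cluster Hist1 did not pass the test: Hist1h2ac, Hist1h2ad, Hist1h2ae, Hist1h2af, Hist1h2ag, Hist1h2ah, Hist1h2ai and Hist1h2an had log2 differences from -0.23 to 0.01, and Hist1h2ao and Hist1h2ap belong to the stretch of chromosome 13 described further on.

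H2B genes moved both ways: 5 of 15 tested fell (33.3%, against 6.76% of all genes) and 2 rose (13.3%, against 6.43%). The H2B genes of cluster Hist1 summed to 5197, 5391, 5027, 5242 and 5006 CPM with vehicle and 4743, 3826, 4739, 4670.1 and 3935 with CK2i. The 5 CK2i libraries lay under the vehicle range, CK2i 2 and 5 farthest, and the sum differed by -0.24 ± 0.07 (SE, adjusted p = 0.04). Without CK2i 2 and 5 the adjusted p was 0.113, and the call held in 3 of 10 fits that left out 1 library. It was lost without any 1 of the vehicle libraries and without CK2i 2 or CK2i 5, at adjusted p of 0.0688 to 0.0963.

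The H2B gene that fell most was Hist1h2bn (chr13:21754123-21754503), with 392, 399, 391, 394 and 393 CPM with vehicle and 346, 279, 339, 309 and 259 with CK2i. The vehicle libraries were within a few CPM of each other and all CK2i libraries lay under them, CK2i 5 lowest, for a difference of -0.36 ± 0.07 (SE, adjusted p = 0.0184). It was the 1 member called with the treated group cut down to CK2i 1, 3 and 4 (adjusted p = 0.031). Of its 75-base stretches 56.7% recur in Hist1h2bk, which had 746, 753, 677, 739 and 713 CPM with vehicle and 659.7, 515, 663, 681 and 547 with CK2i and a difference of -0.24 ± 0.08 (SE, adjusted p = 0.0603), with CK2i 4 inside the vehicle range.

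Hist1h2bb, the H2B gene with the highest level per length (2452 FPKM, ahead of Hist1h2bk at 2138 and Hist1h2bn at 1627), had 806, 876, 824, 795 and 758 CPM with vehicle and 741, 594, 745, 667 and 626 with CK2i. It differed by -0.27 ± 0.07 (SE, adjusted p = 0.0327), without overlap. Hist1h2bg, whose promoter is printed with its octamer and TATAAA, had 789, 837, 801, 782 and 738 CPM with vehicle and 718, 609, 726, 617 and 603 with CK2i and differed by -0.27 ± 0.06 (SE, adjusted p = 0.0258), without overlap. Hist1h2bl had 133, 147, 140.5, 153 and 147 CPM with vehicle and 127, 106, 129, 125 and 101 with CK2i and differed by -0.29 ± 0.07 (SE, adjusted p = 0.0322), also without overlap.

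Hist1h2bf had 454, 483, 441, 479 and 469.7 CPM with vehicle and 390.3, 316, 387, 450.4 and 358 with CK2i. CK2i 4 lay inside the vehicle range, and the difference was -0.29 ± 0.08 (SE, adjusted p = 0.0387). Hist1h2bc had 318, 332, 319, 307 and 272 CPM with vehicle and 316, 240.2, 324, 247 and 226 with CK2i; CK2i 1 and 3 lay inside the vehicle range and the difference of -0.19 ± 0.10 (SE, adjusted p = 0.209) did not pass the test. No stem-loop was found in its annotated transcripts. Of the remaining H2B genes of cluster Hist1, Hist1h2be, Hist1h2bj and Hist1h2bp did not pass the test, with log2 differences of -0.18, -0.17 and -0.04.

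The H2B genes that rose lie outside cluster Hist1 and are among the less abundant. Hist2h2be (chr3:96221119-96223738), the only H2B gene of cluster Hist2 analysed here, had 11.0, 15.8, 16.8, 17.0 and 16.2 CPM with vehicle and 19.4, 23.9, 24.8, 24.3 and 24.2 with CK2i. All CK2i libraries lay over the vehicle range, and replicate 1 was the lowest of each group. The difference of 0.60 ± 0.12 (SE, adjusted p = 0.0174) was the largest of all 56 members in size, equal to a 51.7% rise, and was called in 10 of 10 fits that left out 1 library. Without CK2i 2 and 5 it was 0.57 with an adjusted p of 0.0802. Its level per length, 7.89 FPKM, was the lowest of the H2B genes tested, and its transcript, with an annotated 3′ untranslated region of 2192 bases, held no stem-loop match. All of its 75-base stretches are its own. It faces away from Hist2h2ac, 238 bases apart, which fell.

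Hist3h2ba (chr11:58948920-58949533) had 25.8, 31.2, 31.2, 32.8 and 38.9 CPM with vehicle and 39.7, 40.1, 43.3, 37.7 and 37.8 with CK2i. Vehicle 5 lay inside the CK2i range and the other vehicle libraries under it. The difference of 0.31 ± 0.09 (SE, adjusted p = 0.0465) was called in 1 of 10 fits that left out 1 library, that without vehicle 5, and had an adjusted p of 0.15 without CK2i 2 and 5. The gene carries the commonest stem-loop and a promoter with TATAAA and CCAAT, as printed. The neighbouring pseudogene Hist3h2bb-ps had 32.3, 43.4, 38.4, 39.7 and 39.8 CPM with vehicle and 43.99, 39.3, 43.4, 40.9 and 40.9 with CK2i and differed by 0.11 ± 0.07 (SE, adjusted p = 0.304). The sum of these Hist3 H2B rows differed by 0.20 ± 0.07 (SE, adjusted p = 0.0782). Hist3h2a, which faces away from the pseudogene 172 bases apart, had 339, 389, 363, 376 and 395 CPM with vehicle and 384, 366, 396, 341 and 308 with CK2i; the groups overlapped, with a difference of -0.05 ± 0.07 (SE, adjusted p = 0.613).

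**Figure D3:**
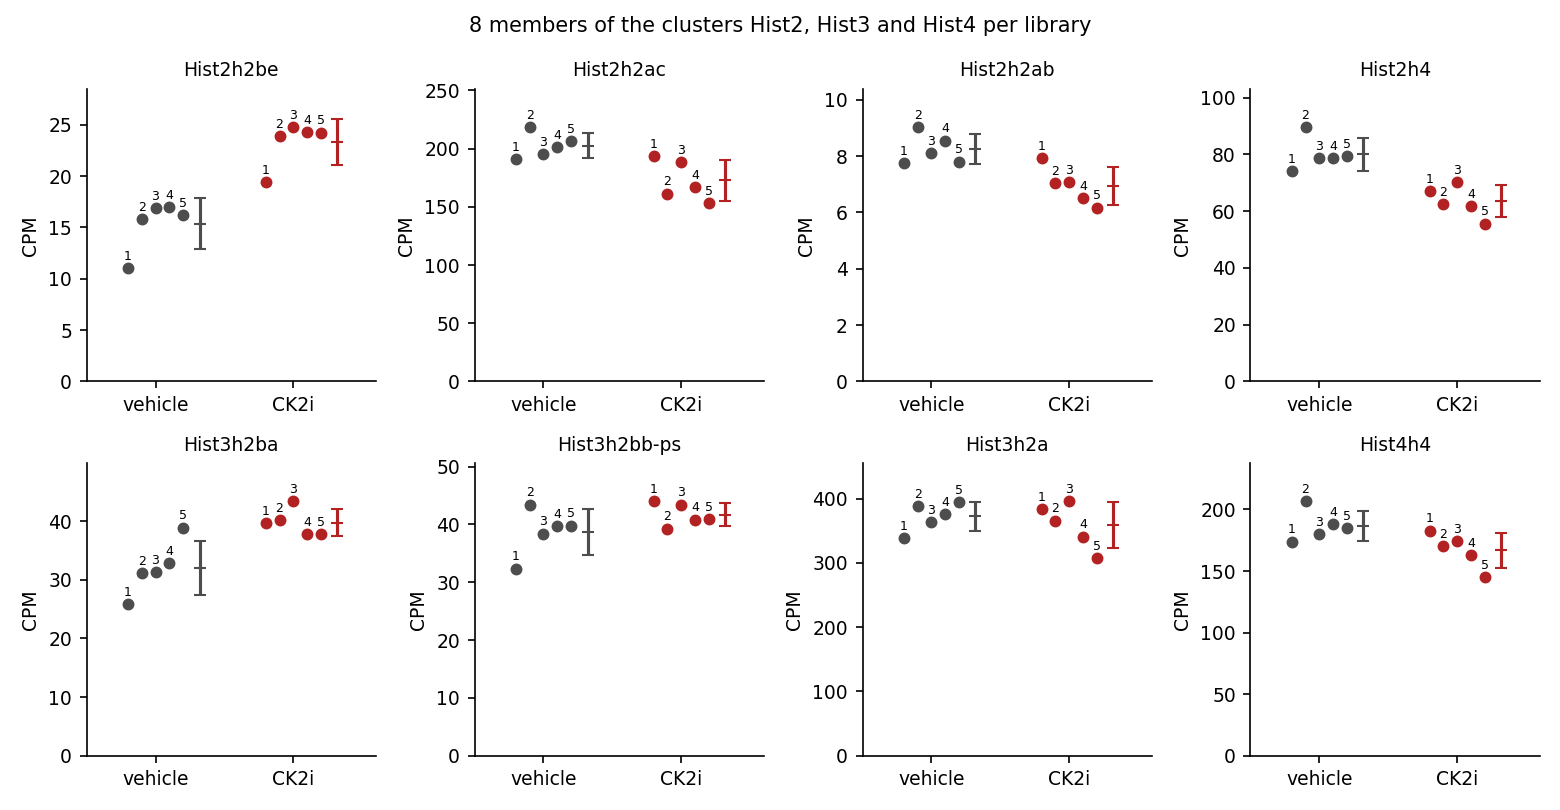
Level in CPM (y axes, from 0) of 8 members of the clusters Hist2, Hist3 and Hist4 in each vehicle and CK2i library (x axes); points carry the replicate number and bars are the mean ± SD of 5 libraries. Hist2h2be is higher in all 5 CK2i libraries, Hist2h4 is lower in all 5, and Hist3h2a overlaps.

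Of 6 H3 genes tested, 1 fell (16.7%, against 6.76% of all genes), and the log2 difference was below 0 for each of the 6. The H3 genes of cluster Hist1 summed to 1549.6, 1814, 1650.5, 1686 and 1664 CPM with vehicle and 1627, 1374, 1535, 1349 and 1301 with CK2i. CK2i 1 lay inside the vehicle range and the other 4 under it, for a difference of -0.22 ± 0.07 (SE, adjusted p = 0.0494). That call stood at the edge of the threshold: it held in 2 of 10 fits that left out 1 library, those without CK2i 1 or CK2i 3, and the adjusted p was 0.247 without CK2i 2 and 5. In the other 8 fits, without any 1 of the vehicle libraries or without CK2i 2, 4 or 5, it ran from 0.0746 to 0.112. The Hist2 H3 genes summed to 414, 508, 452, 447 and 460.3 CPM with vehicle and 447, 420.2, 403, 361 and 379 with CK2i and differed by -0.18 ± 0.07 (SE, adjusted p = 0.0825).

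Hist2h3c2 fell, with 221, 262, 229.8, 229 and 240.0 CPM with vehicle and 222, 205, 193, 188 and 193 with CK2i and a difference of -0.24 ± 0.06 (SE, adjusted p = 0.028). CK2i 1 lay just inside the vehicle range. Of its 75-base stretches 62.6% recur in Hist2h3c1, to which no read was assigned. Hist2h3c1 lies wholly within the noncoding model Gm20634 on the same strand, which is not part of the Hist2 H3 sum. Gm20634 had 26.9 to 49.7 CPM with vehicle and 44.3 to 59.5 with CK2i. How reads were split between it and Hist2h3c2 cannot be told from the counts. Hist2h3b had 192, 247, 222, 218 and 220.2 CPM with vehicle and 225, 215, 210.4, 173 and 186 with CK2i and differed by -0.12 ± 0.08 (SE, adjusted p = 0.299).

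The H3 genes with the highest level per length were Hist1h3b with 879.6, Hist1h3e with 821 and Hist1h3a with 728 FPKM. Hist1h3b had 384, 471, 428, 426 and 435 CPM with vehicle and 407, 342, 395, 361 and 346 with CK2i and a difference of -0.21 ± 0.06 (SE, adjusted p = 0.0511). Hist1h3e had 562, 637, 585, 596 and 578 CPM with vehicle and 585, 488, 541, 472 and 458 with CK2i and a difference of -0.22 ± 0.07 (SE, adjusted p = 0.0535). Hist1h3a, the one H3 gene whose translation differs from the other 6, had 268, 313, 282, 299.9 and 295 CPM with vehicle and 279.5, 239, 267, 227 and 211 with CK2i and a difference of -0.25 ± 0.08 (SE, adjusted p = 0.0507). In these 3 genes CK2i 1 lay inside the vehicle range, in Hist1h3b CK2i 3 as well, and none passed the test. Hist1h3c did not pass it either, with a log2 difference of -0.20.

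H4 had the largest number of falling genes, 7 of 12 tested (58.3%, against 6.76% of all genes), and none rose. The share that fell was larger in H1, at 66.7%. The H4 genes of cluster Hist1 summed to 3828, 4232, 3797, 4009.9 and 4004 CPM with vehicle and 3658, 3307, 3437, 3426 and 3103 with CK2i. All CK2i libraries lay under the vehicle range, and the sum differed by -0.23 ± 0.05 (SE, adjusted p = 0.0195). The call held in 9 of 10 fits that left out 1 library, the exception being that without vehicle 4 (adjusted p = 0.0508), and the adjusted p was 0.0874 without CK2i 2 and 5.

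Hist1h4d had the highest level per length of any member, 2874 FPKM, followed among H4 genes by Hist1h4c with 2248 and Hist1h4n with 1904 FPKM. By CPM it was not the highest member, with a mean of 653 against 932 for Hist1h1c. Hist1h4d had 668, 733, 689, 679.5 and 676 CPM with vehicle and 669.5, 626, 617, 577 and 592 with CK2i. CK2i 1 lay just inside the vehicle range, and the difference was -0.16 ± 0.05 (SE, adjusted p = 0.0426). Hist1h4c had 542, 611, 549.9, 542 and 533 CPM with vehicle and 519.9, 482, 503, 428 and 439.9 with CK2i, without overlap, and differed by -0.23 ± 0.06 (SE, adjusted p = 0.0386). Each was called in 2 of 10 fits that left out 1 library.

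Hist2h4 (chr3:96261682-96263311), the H4 gene of cluster Hist2, fell most firmly. It had 74.0, 89.6, 78.7, 78.5 and 79.3 CPM with vehicle and 67.1, 62.5, 70.2, 61.8 and 55.6 with CK2i, with every CK2i library under the vehicle range. Its difference of -0.33 ± 0.07 (SE, adjusted p = 0.0184) was called in 10 of 10 fits that left out 1 library, and the adjusted p was 0.08 without CK2i 2 and 5. All of its 75-base stretches are its own, so its reads can be placed. Its stem-loop form is shared only with Hist1h4i, which had a log2 difference of 0.12 and did not pass the test.

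The other H4 genes that fell were Hist1h4h, Hist1h4j, Hist1h4f and Hist1h4a. Hist1h4h had 557, 677, 596, 605 and 583 CPM with vehicle and 569, 489, 517, 453 and 444 with CK2i and differed by -0.29 ± 0.07 (SE, adjusted p = 0.0338). Hist1h4j had 294, 358, 315, 308 and 319 CPM with vehicle and 305, 259.9, 288, 250.4 and 239.9 with CK2i and differed by -0.25 ± 0.07 (SE, adjusted p = 0.0474). CK2i 1 lay inside the vehicle range in each of the 4 genes and the other CK2i libraries under it. Hist1h4f had 393, 464, 415, 426 and 417 CPM with vehicle and 402, 375, 366, 340.4 and 357 with CK2i and differed by -0.20 ± 0.05 (SE, adjusted p = 0.0385). Hist1h4a had 325, 369, 336, 341 and 340.0 CPM with vehicle and 327, 301, 319.5, 293 and 295 with CK2i and differed by -0.16 ± 0.05 (SE, adjusted p = 0.0457). These 4 genes were each called in 2 of 10 fits that left out 1 library. Hist4h4, the only member of its cluster, had 174, 207, 179.9, 188 and 185 CPM with vehicle and 183, 170.2, 174, 163 and 145 with CK2i and a difference of -0.16 ± 0.06 (SE, adjusted p = 0.109); CK2i 1 and 3 overlapped the vehicle range. Hist1h4b and Hist1h4k did not pass the test, with log2 differences of -0.20 and -0.25.

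A stretch of chromosome 13 with 6 members, from Hist1h2bq to Hist1h2br (chr13:21806612-21837530), varied between libraries in a way that the groups did not share. Hist1h4n had 614, 487, 429.8, 646 and 663 CPM with vehicle and 399, 352, 392, 693 and 351 with CK2i. Its share of all H4 counts was 15.1, 10.8, 10.6, 15.1 and 15.5% with vehicle and 10.2, 9.96, 10.6, 19.0 and 10.6% with CK2i. Vehicle 1, 4 and 5 and CK2i 4 were high, and the other 6 libraries were low. Hist1h2ap had 268, 213, 189, 279.9 and 269 CPM with vehicle and 208, 165, 197, 275 and 147 with CK2i, and Hist1h2ao had 143, 130.3, 125, 163 and 165 CPM with vehicle and 126, 107, 102, 165 and 98.5 with CK2i. Hist1h2br had 238, 178, 164, 246 and 225 CPM with vehicle and 148, 115, 152, 290.2 and 129 with CK2i. In all 4 genes the same 4 libraries were the highest.

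Their differences between the groups were -0.38 ± 0.20 (SE, adjusted p = 0.193) for Hist1h4n, -0.30 ± 0.16 (SE, adjusted p = 0.218) for Hist1h2ap, -0.28 ± 0.14 (SE, adjusted p = 0.179) for Hist1h2ao and -0.33 ± 0.23 (SE, adjusted p = 0.327) for Hist1h2br, and none passed the test. Hist1h2bq, at the other end of the stretch, had 7.17, 9.35, 13.1, 16.5 and 20.3 CPM with vehicle and 16.5, 23.4, 15.2, 27.8 and 17.0 with CK2i and a difference of 0.59 ± 0.27 (SE, adjusted p = 0.148), with 96.1% of its 75-base stretches also in Hist1h2br. In these 5 genes at most 16.6% of the 75-base stretches are unique. With the 6 members left out of the sums, a choice made after seeing the data, the Hist1 H4 sum differed by -0.21 (adjusted p = 0.0406) and the Hist1 H2A sum by -0.14 (adjusted p = 0.256). The summed level of the other 56 members then overlapped between the groups, since CK2i 1 at 17472 CPM lay over vehicle 1 at 17332 CPM.

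**Figure D4:**
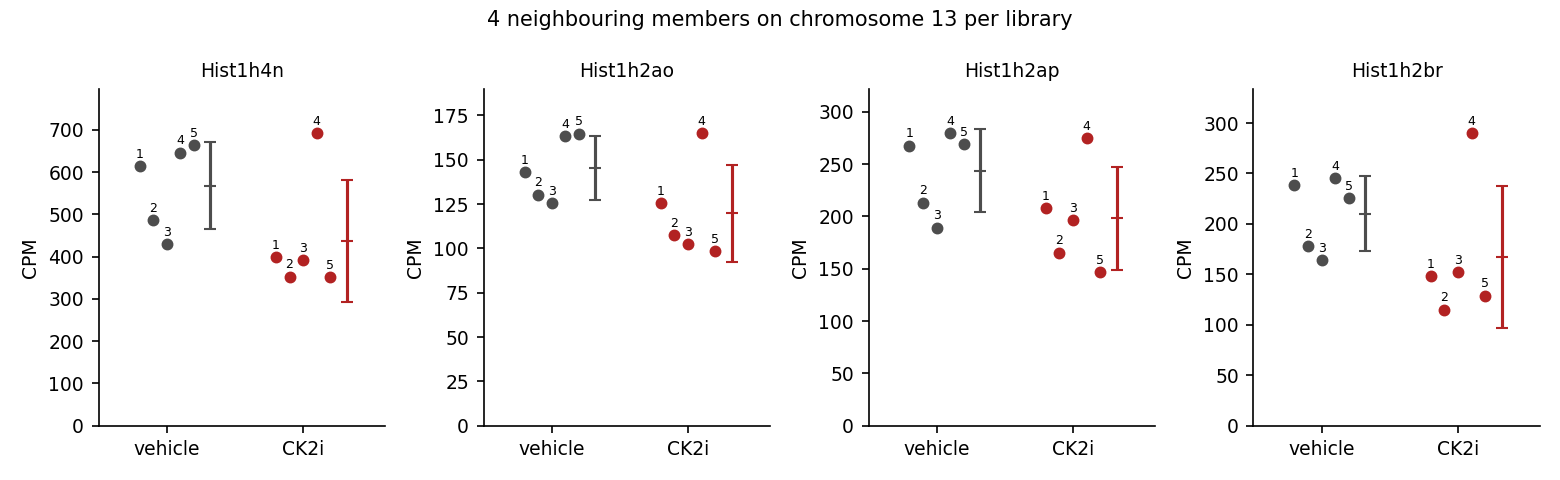
Level in CPM (y axes, from 0) of Hist1h4n, Hist1h2ao, Hist1h2ap and Hist1h2br in each vehicle and CK2i library (x axes); points carry the replicate number and bars are the mean ± SD of 5 libraries. In each panel vehicle 1, 4 and 5 and CK2i 4 are the highest libraries.

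Members were also described by features that did not choose them. Of 38 tested members with a stem-loop match, 14 fell and 1 rose, with a median log2 difference of -0.22. Of 18 without one, 4 fell and 1 rose, with a median of -0.15. Of all genes tested, 6.76% fell and 6.43% rose. Some members without a match, such as Hist1h2bl and Hist1h2bn, have an annotated 3′ untranslated region of 0 bases, where none could be found. The sets therefore do not separate mRNAs with a stem-loop from mRNAs that lack one. Of 30 members with at least 50% unique 75-base stretches, 14 fell and 2 rose (median -0.17), and of 26 with less, 4 fell and none rose (median -0.22). In 12 of the 13 pairs of H2A and H2B genes that face away from each other both genes were tested, and in 5 of them the log2 differences had opposite signs. Of these 5 pairs, only Hist2h2ac and Hist2h2be were called, and in the others neither gene passed the test.

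Genes that make, process or degrade histone mRNA did not pass the test. None of 3 transcription factors, 10 processing factors and 3 decay factors was called by edgeR, with 1, 1 and 0 at an unadjusted p under 0.05, 1, 0 and 0 called by DESeq2 and none by limma. Slbp, the stem-loop binding protein, had 112, 130.5, 121, 125 and 138 FPKM with vehicle and 126, 133, 126, 147 and 135 with CK2i and differed by 0.06 ± 0.06 (SE, adjusted p = 0.562). The groups overlapped. Npat, the coactivator of histone gene transcription, had 13.6, 13.1, 13.6, 12.9 and 14.2 FPKM with vehicle and 13.2, 15.6, 12.7, 15.1 and 15.1 with CK2i and differed by 0.08 ± 0.06 (SE, adjusted p = 0.348). Casp8ap2, a protein of the histone locus body, had 21.6, 20.8, 21.6, 20.6 and 23.3 FPKM with vehicle and 22.1, 25.2, 19.9, 25.4 and 25.2 with CK2i and differed by 0.12 ± 0.04 (SE, adjusted p = 0.0689).

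Of 20 histone chaperone genes, 1 fell (5.00%, near the 6.76% of all genes). It was Anp32e, a chaperone of the variant H2A.Z, with 143, 155, 146, 156 and 156 FPKM with vehicle and 140.2, 132, 137, 145 and 127 with CK2i and a difference of -0.12 ± 0.04 (SE, adjusted p = 0.0493). Of 11 genes for histones outside the clusters, whose mRNAs carry a poly(A) tail and are also made outside S phase, 2 fell (18.2%) and 1 rose (9.09%, against 6.43% of all genes). Cenpa, the histone H3 variant of centromeres, had 111, 117, 119, 117 and 123 FPKM with vehicle and 102, 95.2, 98.1, 108 and 95.5 with CK2i and fell without overlap, with a difference of -0.25 ± 0.04 (SE, adjusted p = 0.0104). H3f3a, which encodes the replacement histone H3.3, had 836, 831, 843, 823 and 813 FPKM with vehicle and 768, 658, 748, 790.0 and 720.5 with CK2i and fell without overlap, with a difference of -0.17 ± 0.04 (SE, adjusted p = 0.0278). H3f3b, which encodes the same protein, had 702, 746, 814, 819 and 835 FPKM with vehicle and 821, 762, 821, 710.0 and 638 with CK2i and differed by -0.10 ± 0.06 (SE, adjusted p = 0.29). H2afy2, a macroH2A gene, rose from a low level: it had 0.630, 0.560, 0.660, 0.750 and 0.440 FPKM with vehicle and 1.68, 1.67, 1.45, 1.24 and 1.30 with CK2i and differed by 1.27 ± 0.17 (SE, adjusted p = 0.00424). H2afz, which encodes H2A.Z, had 661, 649, 643, 631 and 657 FPKM with vehicle and 618, 650.2, 649, 662 and 608 with CK2i and differed by -0.04 ± 0.03 (SE, adjusted p = 0.473). The replacement linker histone gene H1f0 had 26.9, 26.2, 29.9, 31.7 and 33.4 FPKM with vehicle and 27.9, 25.5, 26.9, 29.9 and 24.2 with CK2i and differed by -0.15 ± 0.07 (SE, adjusted p = 0.184).

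No gene of the S phase list fell. Of 36 S phase and replication genes tested, 4 rose (Rrm2, Uhrf1, Ccne2 and E2f2) by edgeR (11.1%, against 6.43% of all genes), the log2 difference was above 0 for 33 and the median was 0.08. Their summed level was 6834, 7198, 6578, 6994 and 7144 CPM with vehicle and 7175, 7375, 6972, 7753 and 7409 with CK2i. The groups overlapped. The ratio of the members' summed level to it was 2.72, 2.88, 2.88, 2.81 and 2.70 with vehicle and 2.56, 2.16, 2.53, 2.19 and 2.06 with CK2i, without overlap. Pcna, the sliding clamp of DNA replication, had 329.5, 363, 333, 345 and 359 FPKM with vehicle and 366, 349, 356, 405 and 376 with CK2i and differed by 0.08 ± 0.05 (SE, adjusted p = 0.244). Of 20 genes of G2 and mitosis, 2 rose (10%) and none fell. The proliferation marker Mki67 had 113, 121, 119.6, 125 and 127 FPKM with vehicle and 132, 196, 123, 167 and 185 with CK2i and rose, with a difference of 0.40 ± 0.12 (SE, adjusted p = 0.0492), with CK2i 3 inside the vehicle range.

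**Figure D5:**
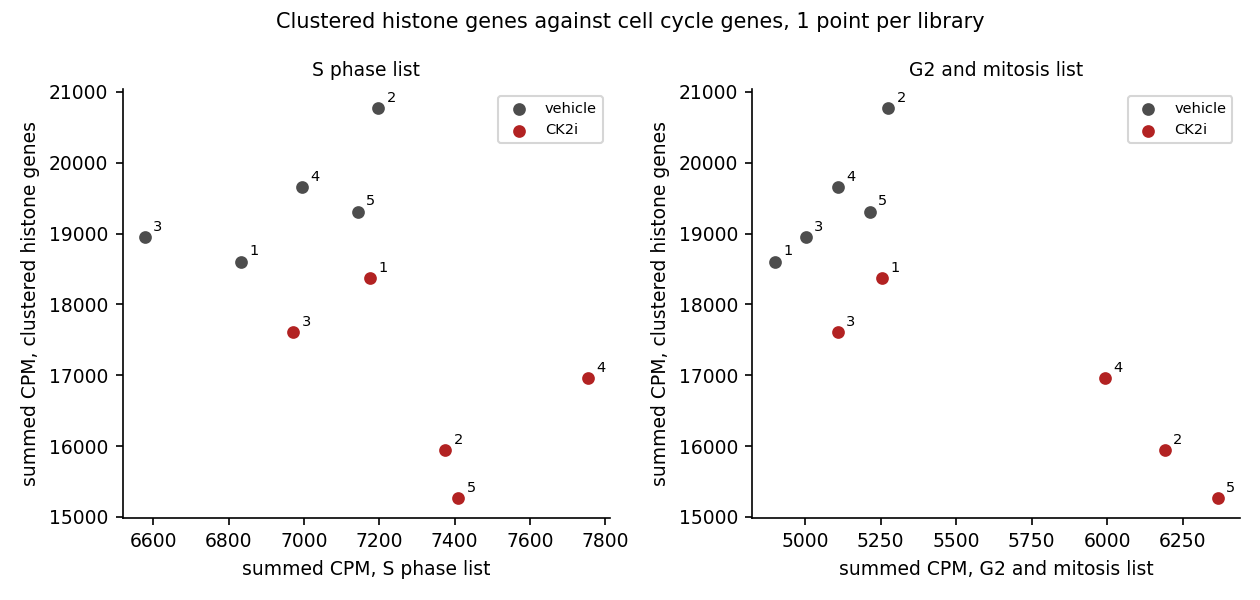
Summed CPM of the clustered histone genes (y axes, not from 0) against the summed CPM of the S phase list (left) and of the G2 and mitosis list (right), 1 point per library with its replicate number. The CK2i libraries lie under the vehicle libraries on the y axis, and CK2i 2, 4 and 5 lie farthest to the right in the right panel.

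Other abundant RNAs without a poly(A) tail did not pass the test: none of 7 was called by edgeR, DESeq2 or limma, 0 had an unadjusted p under 0.05, and their median log2 difference was 0.01. Their summed level ran from 68724 to 72291 CPM with vehicle and from 62153 to 75916 with CK2i. The ratio of the members' summed level to it was 0.271, 0.298, 0.262, 0.273 and 0.275 with vehicle and 0.258, 0.210, 0.248, 0.273 and 0.213 with CK2i, and here the groups overlapped, CK2i 4 lying inside the vehicle range. Of 8 cell type marker lists, 7 had a gene called by edgeR, where 6.43% of all genes tested were called higher and 6.76% lower. All 5 promyelocyte markers rose, with a summed level of 2647 to 5421 CPM with vehicle and 4973 to 8052 with CK2i. Of 10 megakaryocyte markers 5 fell (2882 to 4459 and 1684 to 3509 CPM), and of 10 erythroid markers 6 rose and 1 fell (722 to 1048 and 820.4 to 1131 CPM). Of 9 late neutrophil markers 3 rose (15.7 to 50.7 and 27.2 to 94.3 CPM). Of the 5 B and plasma cell markers tested of 9, Jchain fell (all 9: 516 to 698 and 272 to 446 CPM). Of the 3 T and NK cell markers tested of 6, Gzmb fell, while the summed level ran higher in CK2i with overlap (all 6: 31.1 to 58.2 and 42.3 to 78.8 CPM). No stromal marker of 7 was called by edgeR (57.1 to 126 and 44.8 to 107 CPM), with 2 at an unadjusted p under 0.05 and 1 called by DESeq2. Of 7 progenitor markers 2 rose and 1, Kit, fell (1072 to 1325 and 1156 to 1263 CPM). Of these 8 summed levels, that of the B and plasma cell markers did not overlap between the groups and the other 7 did. No marker was at 0 in all libraries. The part of these cells in the fall of the histone genes was not tested.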

How the data were processed

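Total RNA libraries of 5 vehicle and 5 CK2i samples were sequenced as 75-base paired reads, per the labels' protocols. Per the submitters' processing notes, Bowtie2, RSEM 1.2.31, DESeq2 and the build mm10 were used; for the annotation and strand setting, not given in the sources used here, no choice can be stated. The authors deposited RSEM expected counts per gene, which were rounded to whole numbers here, and RSEM FPKM values, which scale counts by transcript length and depth. Of 38887 identifiers, 37570 matched GENCODE M21; 2 empty lines were left out.

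Counts were tested with edgeR 4.0.16 (R 4.3.3, quasi-likelihood, TMM scaling, filterByExpr with a minimum count of 10, group as the only term, two-sided), with Benjamini-Hochberg adjustment over all 14346 genes and a threshold of 0.05. CPM are TMM-scaled. For sums, the members' rows were replaced by 12 rows of class and cluster and the whole table was fitted again. The scripts were tested on simulated data. Alternatives were RLE or no scaling, scaling without abundant RNAs lacking poly(A), no filter, DESeq2 1.42.0, limma 3.58.1 on log2(FPKM + 1), a replicate block, leaving out libraries and, added after seeing the data, leaving out 6 members of chromosome 13. With an average biological coefficient of variation of 14.2%, the spread between libraries sets the precision of all but the lowest genes.

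Members with full values were all those past the threshold, the 3 per class with the highest mean FPKM, the 3 with the largest differences, Hist1h1c, Hist1h2bc and Hist2h2be, and members outside Hist1 with a mean of at least 1 CPM; Hist1h2ao, Hist1h2ap and Hist1h2br were added after their values were seen. Of the companion genes, 9 were named whatever their test, with those past the threshold in the first 5 lists; the names of S phase genes were added later. Members and lists were chosen with earlier results of these data known.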

Additional observations from a re-analysis of the deposited data

Results flagged for a closer look

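For the named members and the sums, 110 groups of 5 libraries were searched for a lowest or highest library whose gap to the next exceeds 71% of the group's range, which chance flags in about 1 in 20 groups. It did so in 6, of which the 2 of the Hist2 H2B sum repeat Hist2h2be, the only gene in that sum.

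Hist2h2be was low in replicate 1 of each group: vehicle 1 had 11.0 CPM against 15.8 to 17.0 in the other vehicle libraries, and CK2i 1 had 19.4 CPM against 23.9 to 24.8 in the other CK2i libraries. Hist1h4c was high in vehicle 2, at 611 CPM against 533 to 549.9 in the others. Hist1h4n was high in CK2i 4, at 693 CPM against 351 to 399 in the others, and its neighbours Hist1h2ao, Hist1h2ap and Hist1h2br were highest there too. No cause was tested.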

How the results depend on the processing

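The count of 20 members called (18 lower, 2 higher) was 15 to 28 under RLE scaling, no scaling, scaling without abundant RNAs lacking poly(A) and DESeq2, and 14 (13 lower, 1 higher) without the filter on low counts. It was 7 (6 lower, 1 higher) with limma on log2(FPKM + 1) and 1 (1 lower, 0 higher, 26 at an unadjusted p under 0.05) with the treated group cut down to CK2i 1, 3 and 4. With a replicate block it was 8 (7 lower, 1 higher). Leaving out 1 library gave 5 to 26 members (4 to 25 lower, 1 to 2 higher). The 6 class and cluster sums called became 3 with the replicate block, 0 with CK2i 1, 3 and 4 only (8 of 12 at an unadjusted p under 0.05) and 2 to 6 without 1 library. The 10 companion genes called became 4 with the replicate block and 3 to 23 without 1 library. Over all genes, the share called went from 13.2% to 7.94% with the block and ran from 3.09% to 22.1% without 1 library. It was 12.84% to 13.05% under the alternative scalings. With DESeq2 it was 21.1%, against 49.1% of the members. Without the filter it was 5.97%, against 22.95% of the members, and with limma 5.38%, against 11.9%. With CK2i 1, 3 and 4 only, 175 of 14583 genes were called. Same-numbered samples deviated together with correlations of -0.19 to 0.25, so the replicate numbers were not taken as pairs. No called member changed direction, and of the sums Hist3 H2A did, which was not called: it was -0.05 on the log2 scale and 0.0030 with CK2i 1, 3 and 4 only. Of 360 refits of called members 196 kept the call and 164 lost it, and of 216 refits of the sums 182 stayed on their side of the threshold, 33 lost the call and 1 gained it. The summed level of all members was -0.21 on the log2 scale, -0.24 to -0.18 without 1 library and -0.14 with CK2i 1, 3 and 4 only, a setting added for it after seeing the data. The cause of these losses was not tested, and fewer libraries leave fewer degrees of freedom.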
